A study of Homo sapiens with 3 samples.

Results

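The MTRNR2L genes are stretches of nuclear chromosomes that resemble *MT-RNR2*, the mitochondrial gene for the RNA of the large subunit of the mitochondrial ribosome. HA-PRCC-TFE3 peaks were examined at 6 of them, *MTRNR2L1*, *MTRNR2L2*, *MTRNR2L3*, *MTRNR2L6*, *MTRNR2L8* and *MTRNR2L10*, each on a different chromosome. A peak was assigned to a gene when it lay inside the gene or within 3 kb of either end, in hg19 coordinates. The genes were chosen by the presence of peaks at or near them in these same libraries, with the ratio between replicates in view, so their peak numbers, strengths and ratios are described without a test. In all, 8 of the 109205 peaks of replicate 1 and 5 of the 81300 peaks of replicate 2 in narrowPeak form were assigned to them, with 2 BED peaks in each replicate and none of the 286 input peaks.

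The libraries came from HK-2, an established human line from the proximal tubule of the kidney, into which an HA-PRCC-TFE3 construct switched on by doxycycline had been introduced. PRCC-TFE3 is the product of a gene fusion in TFE3-rearranged renal cell carcinoma, in which a piece of PRCC is fused to TFE3, a transcription factor. All cells received 0.2 µg/mL doxycycline for 24 h. The samples comprised 2 libraries of chromatin precipitated through the HA tag, called replicate 1 and replicate 2, and 1 library of input DNA from the same kind of cells. The fusion was expressed from an added construct, and the only background was input DNA. Cells without doxycycline, or without the tag, were not analysed here. The study calls the ChIP libraries biological replicates, and the labels do not say whether they came from separate cultures. The depths, estimated from the deposited lists, were 12235754 tags in replicate 1 and 7418533 tags in replicate 2.

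Copies of mitochondrial DNA in nuclear chromosomes are known as nuclear mitochondrial segments, and they arose when mitochondrial DNA was inserted into the nuclear genome. The MTRNR2L genes are named after *MT-RNR2*, within which lies the short reading frame of humanin, a small peptide described as protective against cell death. A sequencing read from such a copy can closely resemble a read from mitochondrial DNA, of which each cell holds many molecules. How reads that match several places were assigned is not given in the sources used here. A peak at an MTRNR2L gene therefore cannot be told apart from reads of mitochondrial DNA placed there, and every value below carries this limit.

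The reading frame of humanin is a short part of *MT-RNR2*, the mitochondrial gene after which the nuclear genes are named. It was read from the *MT-RNR2* transcript of GENCODE v44, an annotation on hg38, and was the longest of the frames that ran from ATG to a stop codon in that transcript of 1559 bases. It spans bases 963 to 1037 of the transcript and holds 24 codons before the stop. Capitals mark the start and the stop codon.
MT-RNR2 reading frame: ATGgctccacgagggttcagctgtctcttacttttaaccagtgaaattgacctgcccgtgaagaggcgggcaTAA
The sequences of the 6 nuclear copies were not analysed here, so their likeness to the mitochondrial gene was not measured. The E-box CACGTG, a palindrome that TFE3 and its relatives are known to bind, and its longer form TCACGTGA were searched in the *MT-RNR2* transcript. Neither had a match. Among the 93074 GENCODE transcripts of at least that length, cut to their first 1559 bases, 20.9% held CACGTG and 0.967% held TCACGTGA. These letters were thus not in this stretch, which says nothing of the copies themselves.

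In replicate 1, all 6 genes had a narrowPeak peak in their window, and in replicate 2 it was 3 of them, *MTRNR2L1*, *MTRNR2L2* and *MTRNR2L8*. Windows of 7500 bp, about the size of the gene windows, were laid along chromosomes 1 to 22 and X as a background. Of these, 19.4% held a peak of replicate 1, 15.2% a peak of replicate 2 and 14.0% a peak of both. The genes were chosen for their peaks, so nothing is read from these shares. A peak overlapped the gene itself at 4 genes in replicate 1 and at 2 genes in replicate 2. The windows along the chromosomes are longer than the genes, so their shares are no background for these gene counts. No window held an input peak, compared with 0.0581% of the windows along the chromosomes. The nearest input peak to any of the genes lay 115.8 kb away, from *MTRNR2L1*.

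**Figure D1:**
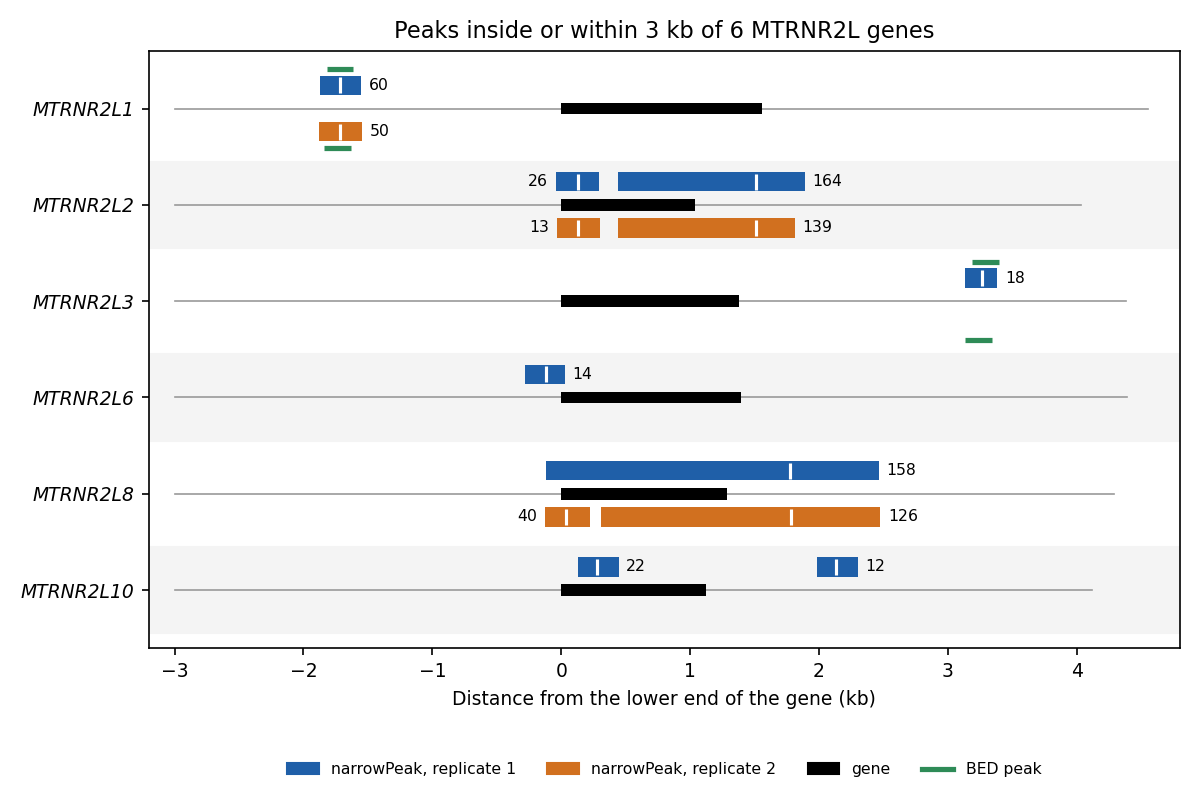
Map of the peaks at each gene, with the distance in kb from the end of the gene that has the lower coordinate on the horizontal axis. Black bars are genes, thin lines the windows of 3 kb, coloured bars narrowPeak peaks of replicate 1 (above the line) and replicate 2 (below it), white ticks their summits, green bars BED peaks, and numbers the tags piled up at the summit. The widest peaks lie on *MTRNR2L8* and *MTRNR2L2* in both replicates, whereas *MTRNR2L3*, *MTRNR2L6* and *MTRNR2L10* have narrowPeak peaks of replicate 1 alone.

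The strength of a peak is given as the pileup, which is the number of tags stacked at the summit after each was extended to the fragment length. It was recovered from the deposited fold enrichment and p-value, and came out whole for 100% of the peaks of both lists. The fold enrichment is the pileup plus 1, divided by the local background plus 1. The median peak had a pileup of 14 tags in replicate 1 and 11 in replicate 2, and median fold enrichments were 7.49 and 7.32.

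*MTRNR2L8* (chr11:10529434-10530723, 1290 bp) had the strongest peaks of the 6 genes by fold enrichment. In replicate 1 a single peak of 2585 bp, chr11:10529316-10531900, covered 100% of the gene, with a fold enrichment of 60.4 and a pileup of 158 tags. In replicate 2 the same stretch was split into a peak of 353 bp with a fold enrichment of 20.6 and a pileup of 40 tags, and a peak of 2171 bp with a fold enrichment of 63.7 and a pileup of 126 tags. Together these covered 93.95% of the gene. The main summit lay outside the gene in both replicates, 487 bp and 491 bp beyond its upper end, so the replicates placed it 4 bp apart. The weaker peak of replicate 2 had its summit inside the gene, 41 bp from the lower end. The main peak ranked 2 by fold enrichment in replicate 1 and 4 in replicate 2. Among the 70388 regions of chromosomes 1 to 22 and X with a peak of both replicates, this region ranked 2 by the lower of its fold enrichments.

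*MTRNR2L2* (chr5:79945819-79946855, 1037 bp) had a pair of peaks in each replicate. The stronger one was 1449 bp wide in replicate 1 (chr5:79946260-79947708), with a fold enrichment of 30.8 and a pileup of 164 tags, the highest pileup at any of the 6 genes in that replicate. In replicate 2 it was 1373 bp wide, with a fold enrichment of 38.4 and a pileup of 139 tags. Its summit lay 472 bp beyond the upper end of the gene in replicate 1 and 477 bp beyond it in replicate 2. At this gene and at *MTRNR2L8*, the main summit was thus outside the gene, on the side of the higher coordinate and at a like distance. The strand of the genes in hg19 is not given in the sources used here, so this side cannot be named as the start or the end of transcription. The weaker peak of *MTRNR2L2* had its summit 131 bp inside the lower end in replicate 1 and 130 bp inside it in replicate 2. It had a fold enrichment of 14.4 and a pileup of 26 tags in replicate 1, and values of 8.98 and 13 in replicate 2. Both peaks together covered 85.8% of the gene in replicate 1 and 86.7% in replicate 2.

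*MTRNR2L1* (chr17:22022437-22023991, 1555 bp) had no peak on the gene itself. Its peak lay below the lower end of the gene, with the summit 1715 bp away in replicate 1 and 1716 bp away in replicate 2. The peak was 317 bp wide in replicate 1, with a fold enrichment of 16.4 and a pileup of 60 tags. In replicate 2 it was 330 bp wide, with a fold enrichment of 19.2 and a pileup of 50 tags. These pileups were above the median of their lists, and the widths were near those of other peaks.

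The remaining genes had narrowPeak peaks in replicate 1 alone, all with pileups of 12 to 22 tags. *MTRNR2L10* (chrX:55207824-55208944, 1121 bp) had a peak inside the gene with a pileup of 22 tags and a fold enrichment of 4.78, and another whose summit lay 1016 bp beyond the upper end, with a pileup of 12 tags and a fold enrichment of 6.22. *MTRNR2L6* (chr7:142374131-142375524, 1394 bp) had a peak that covered 28 bp of the gene, with a pileup of 14 tags and a fold enrichment of 7.18. *MTRNR2L3* (chr20:55933496-55934878, 1383 bp) had a peak whose summit lay 1883 bp beyond the upper end, with a pileup of 18 tags and a fold enrichment of 9.10. Of these fold enrichments, that at *MTRNR2L3* was above the median of the list and the others were below it.

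Replicate 2 was the shallower library, so the peaks listed in replicate 1 alone were set against its depth. Scaled to the total of replicate 2, their pileups would be 13.3 and 7.28 tags at *MTRNR2L10*, 8.49 at *MTRNR2L6* and 10.9 at *MTRNR2L3*, and the lowest pileup in the list of replicate 2 was 4. Of all replicate 1 peaks with the same pileup, the share that overlapped a peak of replicate 2 was 94.5% at 22 tags, 85.5% at 18 tags, 65.1% at 14 tags and 50.3% at 12 tags. These peaks were matched on pileup alone and not on local background. At the peak of 22 tags inside *MTRNR2L10* that background was 7 input tags and the fold enrichment only 4.78. The share of 94.5% is thus not one for peaks of like fold. At *MTRNR2L3* the BED list of replicate 2 did hold a peak, with 9 tags, compared with 19 tags in replicate 1. The peaks at *MTRNR2L6* and *MTRNR2L10* were in neither list of replicate 2, and whether its lower depth accounts for this was not tested.

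**Figure D2:**
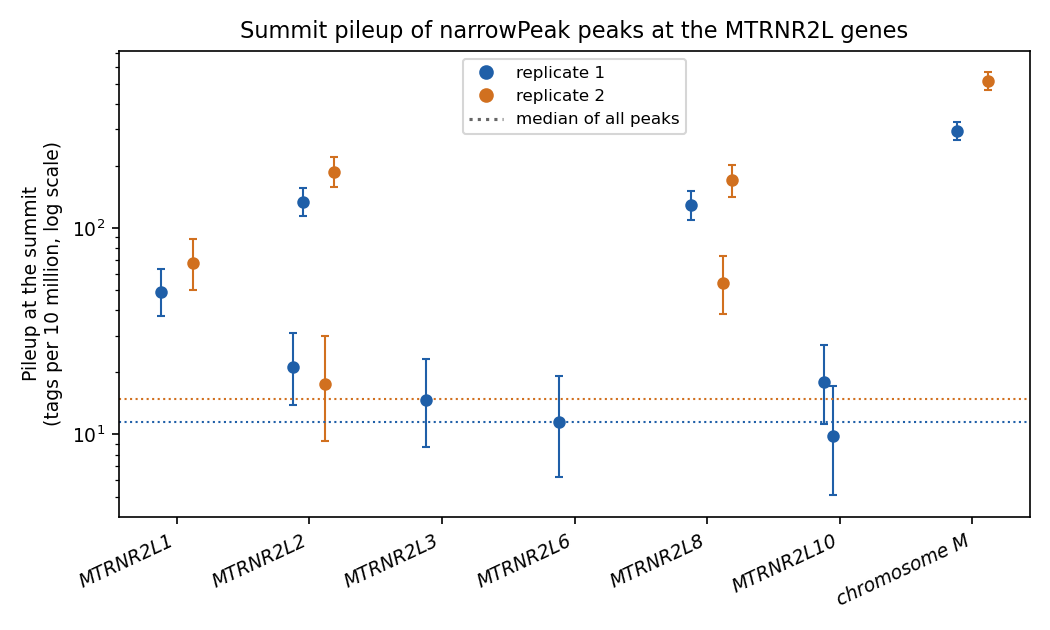
Pileup at the summit of each narrowPeak peak in tags per 10000000 tags of the library, on a log scale, for the 6 genes and chromosome M. Points are single peaks, whiskers 95% exact Poisson intervals that cover counting error only, and dotted lines the median of all peaks of each library. The main peaks of *MTRNR2L2* and *MTRNR2L8* lie between 129 and 187 per 10000000, below chromosome M at 295 and 515, and the peaks of *MTRNR2L3*, *MTRNR2L6* and *MTRNR2L10* lie close to the median lines.

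The window of 3 kb set which peaks were counted. The farthest peak inside it was that of *MTRNR2L3*, 1751 bp from the gene. The nearest peak outside it was 3921 bp from *MTRNR2L2* in replicate 1, with a fold enrichment of 12.3 and a pileup of 22 tags, and 3916 bp away in replicate 2, with values of 15.4 and 23. The next was 7106 bp from *MTRNR2L3* in replicate 1, with a fold enrichment of 14.1, and 7096 bp away in replicate 2, with a value of 15.8. Around *MTRNR2L1*, *MTRNR2L6*, *MTRNR2L8* and *MTRNR2L10* no further peak lay within 10 kb.

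Width set the main peaks of *MTRNR2L8* and *MTRNR2L2* apart from most others. Peaks of 1000 bp or more made up 0.878% of the list of replicate 1 and 0.590% of that of replicate 2. Each of these genes had 1 such peak in each replicate, and the other 9 peaks at the 6 genes were 250 to 353 bp wide. The medians of the lists were 280 bp and 284 bp. Great width was not particular to these genes among shared regions of high fold enrichment. With the peaks of both replicates merged, those ranked 1, 4 and 5 spanned 6083, 1196 and 2178 bp. The region ranked 3 spanned 466 bp.

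**Figure D3:**
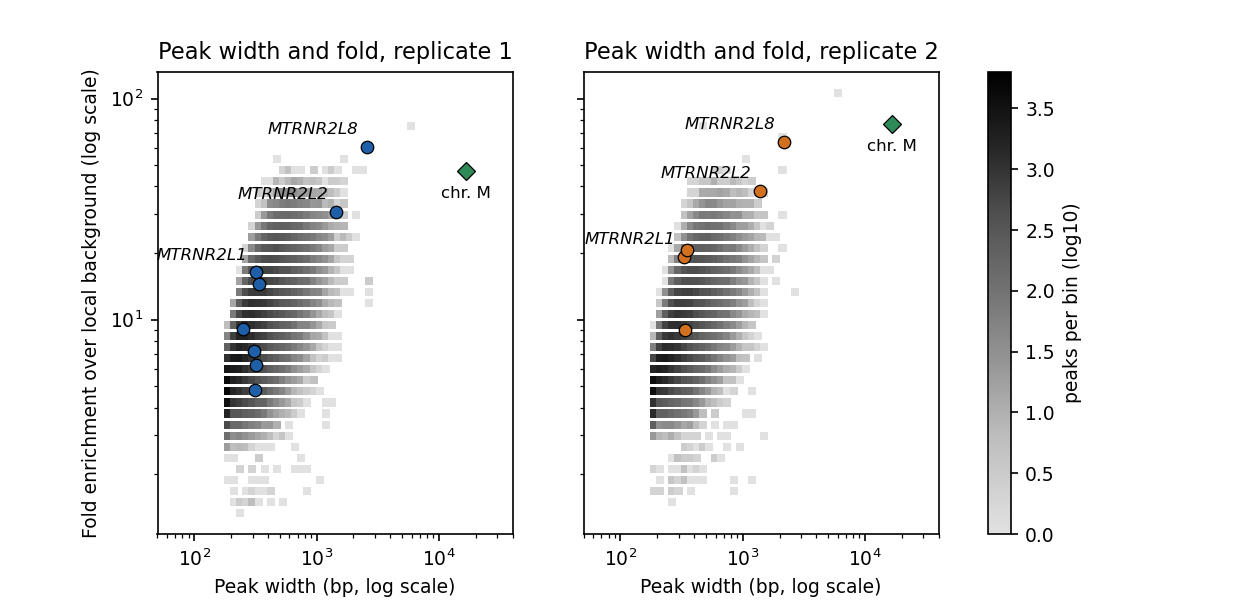
Width in bp and fold enrichment over the local background of all narrowPeak peaks of each replicate, both on log scales, with grey squares shaded by the number of peaks (log10). Coloured points are the peaks at the 6 genes and the diamond is chromosome M. *MTRNR2L8* stands at the upper edge of the cloud, with fold enrichments of 60.4 and 63.7, *MTRNR2L2* lies at its right edge, and chromosome M is a single peak of 16571 bp.

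The deposited lists differed at these genes. None of the BED peaks overlapped any of the 6 genes, although 9 narrowPeak peaks did, 5 of them in replicate 1 and 4 in replicate 2. No share was taken over stretches as short as the genes, so nothing is read from these counts. Of the 8 narrowPeak peaks of replicate 1, 6 overlapped no BED peak of the same replicate, compared with 25.4% of its whole list. In replicate 2 it was 4 of 5, compared with 25.1%. Above percentile 90 of fold enrichment, where the main peaks of *MTRNR2L8* and *MTRNR2L2* belong, the whole lists had shares of 0.815% and 0.923%. Among narrowPeak peaks of 1000 bp or more they were 3.96% and 4.79%. Nothing is read from these shares, since the peaks chose the genes. The lack of a BED peak was not particular to them among the strongest regions. Of the 5 shared regions of highest fold enrichment that overlapped no input peak, those ranked 1 and 4 overlapped a BED peak. The region of *MTRNR2L8*, ranked 2, and those ranked 3 and 5 did not.

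The BED peaks near the genes were at *MTRNR2L1* and *MTRNR2L3*, and both were listed in both replicates. Among the windows along the chromosomes, 16.7% held a BED peak of replicate 1, 13.1% of replicate 2 and 12.1% of both. At *MTRNR2L1* the BED peak held 47 tags in each replicate, although replicate 2 was the shallower library. At *MTRNR2L3* it held 19 tags in replicate 1 and 9 in replicate 2.

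Input DNA was then examined at the summits, since the local background of a narrowPeak peak comes from it. Where this background was above the level set for the whole genome, it was a whole number of input tags at each of these summits. It amounted to 8 input tags at the main summit of *MTRNR2L2*, 7 at the summit inside *MTRNR2L10*, 5 at *MTRNR2L1*, 3 at *MTRNR2L8*, and 2 at each of *MTRNR2L3*, *MTRNR2L6* and the other summit of *MTRNR2L10*. For *MTRNR2L1*, *MTRNR2L2* and *MTRNR2L8* the lists of both replicates gave the same number, but they share the input library. The weaker peak of *MTRNR2L2* was at the genome level in both lists. Of all peaks, 10.1% in replicate 1 and 10.9% in replicate 2 had a local background of 3 or more input tags. In the BED windows near *MTRNR2L1* there were 8 input tags, and 0.0404% and 0.0834% of all BED peaks had 8 or more. At *MTRNR2L3* there were 0 and 1, compared with a mean of 0.874 and 0.876 per BED peak. A peak is called only where the ChIP pileup exceeds this background, so an excess over input at these summits is not a finding. The fold enrichment was highest at *MTRNR2L8* and lowest at the summit inside *MTRNR2L10*.

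Finally, the ratio of replicate 2 to replicate 1 was compared with that of chromosome M, the mitochondrial chromosome, which held the source gene of the copies. Both lists gave chromosome M as 1 narrowPeak peak over its whole length of 16571 bp and held no BED peak there. In replicate 1 its fold enrichment was 47.0 and its pileup 361 tags, and in replicate 2 these were 77.0 and 382 tags. The summits lay at different places, at base 12441 in replicate 1 and at base 9800 in replicate 2. The input list had 1 peak on chromosome M, from base 576 to base 881, with about 30 tags.

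Per 10000000 tags, the pileup on chromosome M was 295 in replicate 1 and 515 in replicate 2, a ratio of 1.75 (95% exact interval, 1.51 to 2.02). These pileups are the highest along the chromosome and lie at different bases, so the ratio is not that of a single site. The interval does not cover this choice of maximum. At *MTRNR2L8* the main pileup was 129 in replicate 1 and 169.8 in replicate 2 per 10000000, a ratio of 1.32 (1.03 to 1.67). At *MTRNR2L2* it was 134 and 187, a ratio of 1.40 (1.11 to 1.76), and for the weaker peak the ratio was 0.825 (0.389 to 1.66). At *MTRNR2L1* it was 49.04 and 67.4, a ratio of 1.37 (0.925 to 2.03). By point value, replicate 2 was thus the higher library at the main summit of each of these genes after scaling to library totals. The interval at *MTRNR2L1* includes 1. The totals had a replicate 1 to 2 ratio of 1.65, but the genome backgrounds of the peak caller had one of 1.56. On that second scale every ratio here is lower, and the interval at *MTRNR2L8* includes 1 too. All of these intervals cover counting error only, and each comes from 1 library on either side.

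Summed over the main summits of the 3 genes, the pileup was 382 tags in replicate 1 and 315 in replicate 2, a scaled ratio of 1.36 (1.17 to 1.58). The ratio on chromosome M was 1.28 times as high (95% exact interval of the quotient, 1.04 to 1.59). Gene by gene, the quotient was 1.27 for *MTRNR2L1* (0.833 to 1.94), 1.25 for *MTRNR2L2* (0.947 to 1.65) and 1.33 for *MTRNR2L8* (0.999 to 1.76). These quotients are a description, since the ratios were in view when the genes were chosen, and each rests on 1 library on either side. The chromosome M pileups behind them come from different bases in the replicates, which their intervals do not cover.

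Other shared regions gave the scale for these ratios. Across the 15588 regions of chromosomes 1 to 22 and X with a pileup of 50 tags or more in both replicates together, the median ratio was 1.13 and the quartiles were 0.970 and 1.33. The ratios of *MTRNR2L1*, *MTRNR2L2* and *MTRNR2L8* exceeded those of 79.2%, 81.4% and 73.8% of these regions, and that of chromosome M exceeded 97.0%. The interval lay above this median for none of the 4 shared regions at the genes, compared with 1.57% of these regions and 0.695% of all 70388 shared regions. On the chromosomes that carry the 3 genes, the median ratio was 1.17 on chromosome 17, 1.15 on chromosome 5 and 1.16 on chromosome 11.

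The ratio was higher among regions of the highest pileup. Of 34 regions with at least 200 tags in both replicates together, 22 overlapped no input peak, and their median ratio was 1.54, with a range of 1.32 to 1.99. *MTRNR2L8* had the lowest of these 22 ratios, and *MTRNR2L2* was also among them. The strongest shared region by fold enrichment, chr1:564340-570422, had pileups of 317 and 314 tags and a ratio of 1.63 (1.39 to 1.92). The region ranked 3, chr13:110076353-110076818, had a ratio of 1.58 (1.30 to 1.94). Those ranked 4 and 5, on chromosome 5, had ratios of 1.38 (1.02 to 1.87) and 1.34 (0.981 to 1.83), which were like those of the MTRNR2L genes. Whether these ranked regions also hold copies of mitochondrial DNA was not examined. The limit on reads of mitochondrial DNA may therefore apply to them too. The ratios of *MTRNR2L8* and *MTRNR2L2* were below the median of 1.54 of the 22 regions. Their intervals, 1.03 to 1.67 and 1.11 to 1.76, include that median. The 22 regions have a lower limit of pileup but no upper one, and the difference was not tested.

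**Figure D4:**
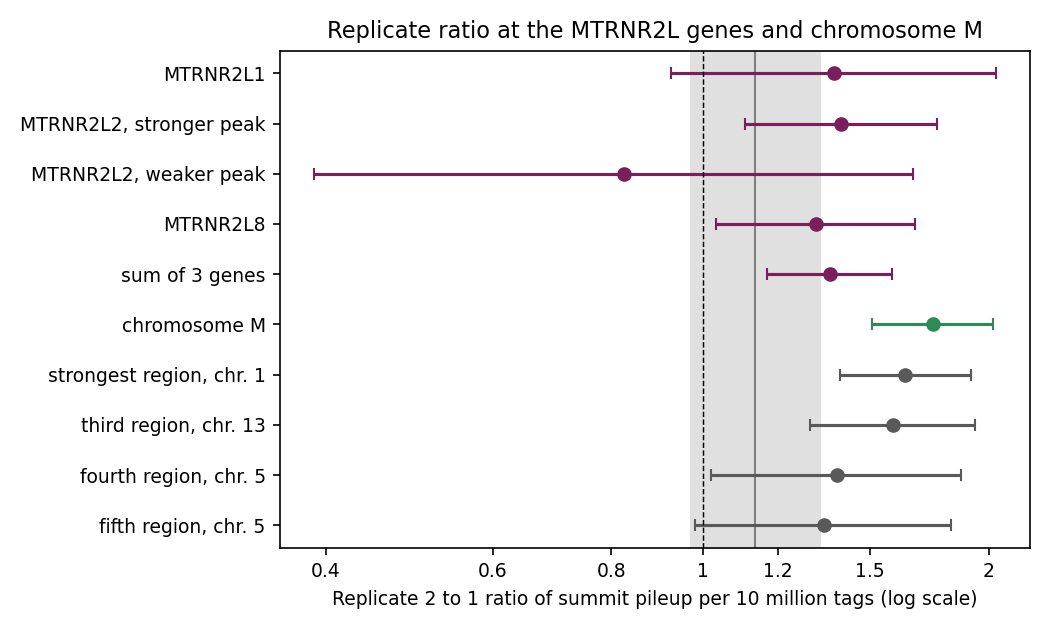
Ratio of replicate 2 to replicate 1 in summit pileup per 10000000 tags, on a log scale, with 95% exact intervals that cover counting error only. The grey band runs from the lower to the upper quartile of 15588 shared regions and the grey line is their median of 1.13, while the dashed line marks equal values. Chromosome M lies at 1.75, from summits at different bases in each replicate. The main summits of *MTRNR2L1*, *MTRNR2L2* and *MTRNR2L8* lie between 1.32 and 1.40.

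In the BED lists the same ratio could be taken only at *MTRNR2L1* and *MTRNR2L3*. Their tags summed to 66 in replicate 1 and 56 in replicate 2, a scaled ratio of 1.40 (0.962 to 2.03). It was 1.65 (1.08 to 2.53) at *MTRNR2L1* and 0.781 (0.311 to 1.81) at *MTRNR2L3*, so the sum rested on *MTRNR2L1*. BED peaks found in both replicates on chromosomes 1 to 22 and X had a ratio of 1.09. Chromosome M held no BED peak and gave no such ratio.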

How the data were processed

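ChIP-seq of HA-PRCC-TFE3 in HK-2 cells was analysed from the deposited peak lists, which were called for each sample separately. The study names MACS in Strand NGS with input DNA as comparison. The build was hg19 per the submitters' processing notes, and the handling of duplicates and of reads with several matches is not given in the sources used here. In the narrowPeak lists the authors deposited a fold ratio, −log10 p and q values and a score (10 times the −log10 q value). In the BED lists the authors deposited for each peak the count of its tags, a signal per 10000000 tags, a score, fold ratios, p-values and a focus fraction, under displaced column names, so columns were read by position. The methods do not name the caller of the BED lists.

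Gene positions were given in hg19 with the task. The genes, comparisons and alternatives were chosen with earlier results of these data known. All 6 genes are named, with chromosome M and the 5 shared regions of highest fold enrichment as comparisons. Library totals were the sum of tags over the sum of the signal. Pileup and local background were solved from fold and p for each narrowPeak peak, with a tolerance of 0.001 in −log10 p, and this was tested on simulated data. Input tags at summits were counted as whole within 0.02. The planned ratio used BED tags. As chromosome M had none, pileups were used there and beside it at the genes, a choice made after the data were examined. Overlap meant at least 1 bp. Intervals are exact Clopper-Pearson intervals (95%) on the share of replicate 2, and the quotient has the exact conditional interval of an odds ratio. Both cover counting error only. Further MTRNR2L genes were not analysed here. Python 3.11.15, scipy 1.17.1 and pandas 2.3.3 were used.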

Additional observations from a re-analysis of the deposited data

How the results depend on the processing

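Of 29 alternatives, 26 stayed within a factor of 1.5 for counts or within the interval for ratios, and 3 moved. At the genes, the pileup and fold ratios were set against the BED ratio of 1.40, which covers different genes. The count of 26 is therefore not a measure of stability for them. The fold ratio of 1.13 lay below the interval of the summed pileups for the same genes, 1.17 to 1.58. The 13 narrowPeak peaks at the genes became 5 to 8 when either replicate was left out, since 1 list was then counted. They were 9 on the gene bodies alone and 17 with windows of 10 kb, and 13 with q below 1e-05. Genes with a peak of both replicates numbered 2 to 4 under all alternatives, against 3. The BED ratio of 1.40 fell to 0.781 without *MTRNR2L1*. The cause was not tested, but only 19 and 9 tags of *MTRNR2L3* remained. The ratio of summed pileups was 1.33 to 1.39 when each of its 3 genes was left out, and 1.28 when scaled to the genome background of the peak caller. The BED ratio at the genes was 1.28 when scaled to matched BED peaks, and in narrowPeak fold, summed over the 3 genes with peaks of both replicates, the ratio was 1.13. On chromosome M, against 1.75, the ratio was 1.60 when scaled to matched BED peaks, 1.64 in narrowPeak fold and 1.65 when scaled to the genome background. The 1 added to the background in the fold enrichment draws its ratio down more where that background is low. In replicates 1 and 2 the background was 1.63 and 0.994 at the main summit of *MTRNR2L8*, and 6.70 and 3.98 on chromosome M. The fold ratios of 1.13 and 1.64 are therefore not directly comparable. Input peaks at the genes were 0 under all windows. The BED ratio could not be taken on gene bodies alone or within 1 kb, where no BED peak lay, nor on chromosome M. No paired analysis was possible because only the ChIP libraries are numbered and they form 1 group.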

Other observations

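Strong shared regions without a BED peak were not limited to the MTRNR2L genes. Of the 15588 regions on chromosomes 1 to 22 and X with a summed pileup of 50 tags or more, 189 overlapped no BED peak of either replicate. Their median ratio of replicate 2 to replicate 1 was 1.19 (quartiles, 0.998 and 1.40), compared with 1.13 (0.970 and 1.33) among the other 15399. This difference was not tested.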
